A study of Mus musculus with 8 samples.

Results

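The subunits of the oxidative phosphorylation system that are encoded in the nucleus were followed in the liver RNA, complex by complex. Members were chosen by name: gene symbols beginning with Nduf and 1 of the letters a, b, c, s or v and a digit, the symbols Sdha, Sdhb, Sdhc and Sdhd, and symbols beginning with Uqcr, with Cox4 to Cox8 or with Atp5. Of the 25239 symbols counted, 88 matched. Of these, 84 are subunit genes, with 35 in complex I, 4 in complex II, 8 in complex III, 20 in complex IV and 17 in complex V, and 4 are gene copies or pseudogenes (Ndufs5-ps, Cox7c-ps1, Ndufa11b and Ndufb4c). Ndufa4 and its relative Ndufa4l2 carry complex I names but were placed in complex IV, where the protein sits. Ndufab1, an acyl carrier subunit of complex I, lies outside the name pattern. The subunits encoded by mitochondrial DNA are not analysed here.

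Whole-liver RNA of 8 adult male mice was sequenced, 4 per group. All mice carried floxed Smo alleles (Smo fl/fl, Smo tm2Amc/J) on a C57Bl6/J background and ate the CDA-HFD, a choline-deficient, L-amino acid defined diet rich in fat, for 6 weeks. They received an AAV8 vector by tail vein 1 week before sacrifice, with either luciferase (control, labelled Smo-Luc) or Cre recombinase (Smo-KO, labelled Smo-Cre) behind the hepatocyte promoter TBG. Recombination was thus directed at hepatocytes, while the tissue sequenced held every liver cell type, and all mice were on the diet, so no group shows the liver without it. The libraries held between 8203299 and 9999732 reads on genes. Smo, which encodes the transducer of the Hedgehog signal, stood at 8.17, 8.49, 8.75 and 8.21 CPM (reads per 1e+06 of the library after TMM scaling) in control livers 1 to 4 and at 5.67, 3.93, 4.27 and 4.37 CPM in Smo-KO livers 1 to 4. The groups did not overlap, and the log2 fold change was -0.88 ± 0.16 (SE; edgeR, unadjusted p = 0.000101, adjusted p = 0.0957; DESeq2, adjusted p = 0.00646). All 10 hepatocyte markers listed were detected, with Alb the most abundant, and their summed level was 30560 ± 2399 CPM in control and 29490 ± 645 CPM in Smo-KO livers (SD, n = 4 each).

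Oxidative phosphorylation couples the oxidation of NADH and succinate to the synthesis of ATP in the inner mitochondrial membrane. Complex I takes electrons from NADH and complex II, which is also the succinate dehydrogenase of the citric acid cycle, takes them from succinate. Ubiquinone carries them to complex III and cytochrome c carries them on to complex IV, which reduces oxygen, and complex V, the ATP synthase, uses the proton gradient built by complexes I, III and IV. Hepatocytes are rich in mitochondria and draw on this system for gluconeogenesis, urea synthesis and the disposal of fatty acids. Complex II is the exception among the complexes in that its subunits all come from nuclear genes.

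After the filter on low counts, 79 of the 84 subunit genes and 1 copy were tested among 12977 genes. Mean levels were higher in Smo-KO livers for 68 of the 79 subunits and lower for 11, and the median log2 fold change was 0.14, beside -0.00084 over all genes tested. With p adjusted over all genes, no subunit was called at 0.05 by edgeR (lowest adjusted p = 0.261, Ndufb2) or by DESeq2 (lowest adjusted p = 0.230). No gene at all passed in edgeR (lowest adjusted p = 0.0785), and DESeq2 called 167 genes, 1.29% of those tested. At an unadjusted p under 0.05, 10 of the 79 subunits were called, which is 12.7%, against 13.8% of all genes tested. The 10 were all higher in Smo-KO livers, and 6.7% of all genes tested were called in that direction. For no subunit were the 4 Smo-KO livers all above or all below the 4 control livers, while this held for 7.37% of all genes tested. The number called depended on single livers. It was 30, 14, 1 and 0 when Smo-KO livers 1 to 4 were left out in turn. Of all genes, 17.8%, 13.1%, 9.5% and 10.2% were called in these fits. With control livers 1 to 4 left out in turn, the number was 20, 2, 8 and 3. The shares of all genes were then 14.9%, 12.1%, 10.6% and 12.1%.

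By complex, the median log2 fold change was 0.14 for complex I (31 of 34 tested members higher), -0.0096 for complex II (2 of 4 higher), 0.18 for complex III (7 of 8 higher), 0.18 for complex IV (14 of 16 higher) and 0.096 for complex V (14 of 17 higher). The calls at an unadjusted p under 0.05 fell in complex I (3 members), complex IV (4) and complex V (3). Among the 10, Ndufa2 shares 11.5% of its exon bases with a neighbouring gene, Ndufb2 8.57%, Ndufs6 3.58% and Atp5md 0.581%, and how reads there were counted is not given in the sources used here. In whole-liver RNA, a different share of hepatocytes and a different amount of an mRNA per hepatocyte cannot be told apart.

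**Figure D1:**
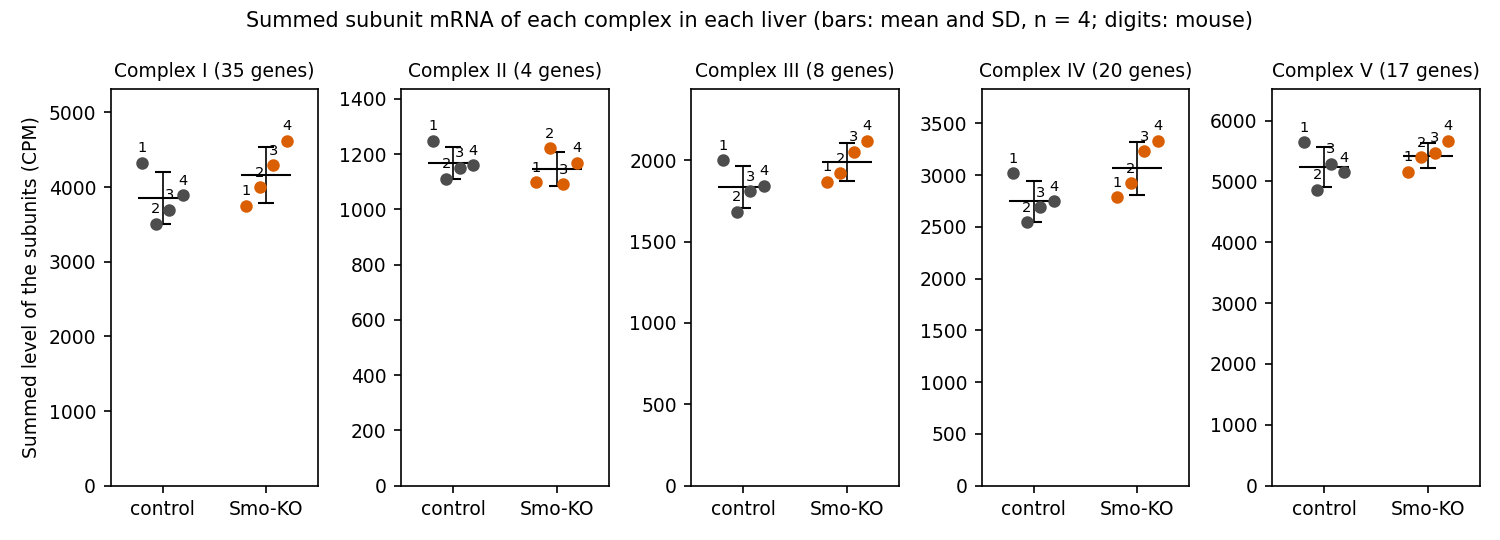
Summed level of the subunit mRNAs of each complex (vertical axis, CPM, from 0) in each control and Smo-KO liver, where points are mice with their number and bars give the mean and SD of 4 livers. The groups overlap in all 5 complexes, with control liver 1 the highest control in each and control liver 2 the lowest.

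The summed mRNA of the complex I subunits was 4326, 3506, 3698 and 3894 CPM in control livers 1 to 4 and 3752, 3997, 4295 and 4620 CPM in Smo-KO livers 1 to 4. Only Smo-KO liver 4 lay above control liver 1, and Smo-KO liver 1 lay between control livers 3 and 4. The means were 3856 ± 351 and 4166 ± 375 CPM (SD, n = 4 each), a ratio of 1.08, as drawn in the plot of summed levels by liver.

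Within complex I, the 9 accessory subunits of the matrix arm had a median log2 fold change of 0.18 and the 18 tested accessory subunits of the membrane arm one of 0.14. The 7 nuclear core subunits of the matrix arm, which hold the flavin and the iron-sulfur clusters, had a median of 0.053. With the trend on transcript length removed, as described below, these medians were 0.067, 0.011 and 0.021, and the difference between the classes was not tested. Ndufb2, an accessory subunit of the membrane arm (chr6:39592574-39603382, plus strand, GRCm38), had the lowest p of all members. Its level was 70.7, 64.8, 69.9 and 75.8 CPM in control livers and 73.5, 80.9, 88.4 and 100.2 CPM in Smo-KO livers, given here and below in the order of mice 1 to 4. Smo-KO liver 1 lay within the control range and the other 3 above it, and the log2 fold change was 0.29 ± 0.10 (SE; unadjusted p = 0.0166). The exact permutation test over the 70 assignments of livers gave a two-sided p of 0.0571, where 0.0286 is the smallest it can give.

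Ndufa2, an accessory subunit of the matrix arm with a thioredoxin-like fold, was measured at 139.5, 131.3, 133.9 and 142.4 CPM in control and at 139.7, 147.6, 181.7 and 197.8 CPM in Smo-KO livers. Smo-KO livers 3 and 4 stood well above the controls and liver 1 among them (log2 fold change 0.29 ± 0.11, SE, unadjusted p = 0.0241). Ndufs6, the zinc-binding accessory subunit of the matrix arm, showed 103.5, 83.9, 89.0 and 94.4 CPM in control and 93.7, 104.6, 112.9 and 135.0 CPM in Smo-KO livers (0.27 ± 0.12, SE, unadjusted p = 0.0374). Here control liver 1 reached nearly the level of Smo-KO liver 2. Ndufb8, a membrane arm subunit often used as the antibody marker of complex I, missed the unadjusted threshold with 149.5, 126.3, 129.5 and 131.1 CPM in control and 139.0, 140.9, 159.1 and 168.1 CPM in Smo-KO livers (0.18 ± 0.094, SE, unadjusted p = 0.0803).

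The 3 complex I members with lower means were Ndufa10 (log2 fold change -0.061), Ndufs8 (-0.033) and Ndufa9 (-0.019), and the lowest unadjusted p among them was 0.59. Among core subunits, Ndufs1, which carries several of the iron-sulfur clusters, was at 85.4, 87.3, 101.8 and 94.0 CPM in control and at 82.1, 98.5, 96.5 and 93.0 CPM in Smo-KO livers. The groups were interleaved (0.0053 ± 0.092, SE, unadjusted p = 0.955). Ndufs5, a small subunit of the membrane arm, was listed at 0 reads in all 8 livers, while its copy Ndufs5-ps was at 37.3, 31.0, 32.2 and 35.1 CPM in control and 34.1, 35.7, 39.6 and 43.2 CPM in Smo-KO livers. Whether reads from Ndufs5 were counted under Ndufs5-ps was not tested, and the level of Ndufs5 is therefore given only as listed.

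Complex II had the ratio of means closest to 1. Its summed mRNA was 1248, 1110, 1150 and 1160 CPM in control and 1098, 1222, 1091 and 1169 CPM in Smo-KO livers (1167 ± 58.3 and 1145 ± 62.3 CPM, SD, n = 4 each, ratio 0.981). Sdha, the flavoprotein that oxidises succinate (chr13:74322254-74350280, minus strand, GRCm38), was at 433.1, 440.2, 452.0 and 425.4 CPM in control and at 412.6, 457.8, 383.4 and 396.0 CPM in Smo-KO livers. Smo-KO livers 1, 3 and 4 lay below all controls and liver 2 above them, and the log2 fold change of -0.086 ± 0.085 (SE) did not pass the test (unadjusted p = 0.330). Sdhb, the iron-sulfur subunit and the usual antibody marker of the complex, was at 325.9, 245.0, 247.0 and 279.6 CPM in control and at 262.6, 282.4, 265.0 and 290.2 CPM in Smo-KO livers. Its log2 fold change was 0.0035 ± 0.10 (SE, unadjusted p = 0.974). The membrane anchors Sdhc and Sdhd, which bind ubiquinone, had log2 fold changes of -0.023 ± 0.088 and 0.047 ± 0.095 (SE).

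The complex III subunits summed to 1999, 1684, 1811 and 1843 CPM in control and 1868, 1921, 2052 and 2120 CPM in Smo-KO livers, with Smo-KO livers 3 and 4 above every control and a ratio of means of 1.08. All 5 small subunits had higher means (median log2 fold change 0.19), while the 2 large core proteins had a median of -0.020. With the trend on transcript length removed, these medians were 0.012 and -0.019, and 3 of the 5 small subunits were higher. The difference between these classes was not tested. Uqcrh, the hinge protein beside cytochrome c1, was at 148.0, 135.7, 155.3 and 154.8 CPM in control and at 147.4, 169.1, 196.6 and 174.0 CPM in Smo-KO livers (0.21 ± 0.098, SE, unadjusted p = 0.0529). Uqcr11 was at 188.7, 157.2, 147.5 and 167.9 CPM in control and at 173.2, 171.5, 211.8 and 225.4 CPM in Smo-KO livers (0.24 ± 0.11, SE, unadjusted p = 0.0530). In Uqcrh 3 Smo-KO livers lay above all controls, and in Uqcr11 only livers 3 and 4 did. Uqcr10, a further small subunit, had a log2 fold change of 0.17 ± 0.091 (SE, unadjusted p = 0.0799).

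Uqcrfs1, the Rieske iron-sulfur protein that hands electrons to cytochrome c1, had a log2 fold change of 0.14 ± 0.088 (SE, unadjusted p = 0.139). Uqcrc2, a core protein and the antibody marker of complex III, was at 261.9, 240.2, 269.6 and 267.7 CPM in control and at 239.5, 267.0, 258.1 and 232.3 CPM in Smo-KO livers. Here the 2 lowest livers were Smo-KO (-0.060 ± 0.084, SE, unadjusted p = 0.487). Of the exon bases of Uqcrc2, 26.6% are shared with Pdzd9 on the opposite strand. The library kit does not mark strand, so it cannot tell which gene reads there came from.

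For complex IV, cytochrome c oxidase, the summed mRNA was 3016, 2544, 2687 and 2745 CPM in control and 2786, 2923, 3230 and 3331 CPM in Smo-KO livers (2748 ± 197 and 3067 ± 256 CPM, SD, n = 4 each). This was the largest ratio of means among the 5 complexes, 1.12, with Smo-KO livers 3 and 4 above every control. Cox6b1, the subunit facing the intermembrane space near the docking site of cytochrome c (chr7:30616861-30626151, minus strand, GRCm38), was at 196.7, 157.4, 174.3 and 200.6 CPM in control and at 192.2, 213.0, 227.4 and 243.7 CPM in Smo-KO livers. Smo-KO livers 2, 3 and 4 exceeded every control, and the log2 fold change was 0.27 ± 0.10 (SE, unadjusted p = 0.0249). Ndufa4 was at 260.2, 251.4, 268.8 and 259.2 CPM in control and at 256.2, 306.7, 343.9 and 327.5 CPM in Smo-KO livers (0.25 ± 0.098, SE, unadjusted p = 0.0253), with the same 3 livers high. Cox7a2 and Cox6c were the other members called, with log2 fold changes of 0.21 ± 0.094 and 0.22 ± 0.099 (SE, unadjusted p = 0.0433 and 0.0441).

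Several subunits of complex IV exist as a ubiquitous form and a form restricted to muscle, lung, testis or other tissues. The ubiquitous forms Cox4i1, Cox6a1, Cox6b1, Cox7a2 and Cox8a had a median log2 fold change of 0.15, and the 6 other general subunits, Ndufa4 among them, one of 0.19. With the length trend removed these were 0.043 and 0.034, and the difference between them was not tested. Cox4i1, the regulatory subunit that binds ATP, was at 566.5, 417.1, 436.5 and 468.4 CPM in control and at 506.0, 491.5, 541.8 and 562.1 CPM in Smo-KO livers. Control liver 1 was the highest of the 8 (0.15 ± 0.11, SE, unadjusted p = 0.167). Cox8a (0.10 ± 0.096, SE) and Cox6a1 (0.061 ± 0.094, SE) did not pass either.

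Of the 8 tissue-restricted forms, 4 had too few reads to test. Cox7b2 and Cox8c had no read in any liver, where 3 reads, the limit that a count of 0 allows, correspond to between 0.297 and 0.366 CPM, counting error only. Cox8b had a read in 1 control and 1 Smo-KO liver, and Cox4i2 did not exceed 0.959 CPM. Cox7a1, the muscle and brown fat form, was at 1.47, 0.839, 0.795 and 0.198 CPM in control and at 1.03, 1.09, 1.22 and 1.49 CPM in Smo-KO livers. These levels are a few reads per library, and the log2 fold change of 0.57 ± 0.43 (SE) was within the spread (unadjusted p = 0.204). Cox6a2, the heart and skeletal muscle form, lay between 0.982 and 1.68 CPM in the 8 livers (-0.16 ± 0.27, SE, unadjusted p = 0.578). Cox6b2, known from testis, was the most abundant restricted form, at 17.3, 15.4, 13.0 and 15.7 CPM in control and 12.1, 11.8, 32.7 and 18.3 CPM in Smo-KO livers. Smo-KO liver 3 alone carried its higher mean (0.28 ± 0.27, SE, unadjusted p = 0.326), which became -0.13 without that liver. Ndufa4l2, a relative of Ndufa4 induced by hypoxia, lay between 2.07 and 5.22 CPM (-0.056 ± 0.29, SE, unadjusted p = 0.852). Of the 11 striated muscle markers, 5 had no read in any liver, and the list summed to 3.29 ± 1.07 CPM in control and 2.31 ± 1.12 CPM in Smo-KO livers (SD, n = 4 each).

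The ATP synthase, complex V, summed to 5649, 4866, 5292 and 5148 CPM in control and 5160, 5400, 5475 and 5669 CPM in Smo-KO livers, a ratio of means of 1.04 with Smo-KO liver 4 just above control liver 1. The 5 supernumerary subunits of the membrane part, which help the synthase to form dimers, had a median log2 fold change of 0.24 and were all higher in mean. The 4 peripheral stalk subunits had a median of 0.084, the 3 genes of the c ring 0.021 and the 5 subunits of the F1 head 0.0041. With the trend on transcript length removed, these medians were 0.029, 0.00098, 0.0038 and -0.00073, and the difference between the parts was not tested.

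Atp5k encodes the e subunit of the membrane part (chr5:108433244-108434448, minus strand, GRCm38) and had the largest log2 fold change in the complex. It was at 38.9, 37.6, 39.2 and 38.4 CPM in control and at 36.4, 45.4, 52.0 and 57.8 CPM in Smo-KO livers. The controls lay close together, Smo-KO liver 1 lay below them and the other 3 above (0.31 ± 0.13, SE, unadjusted p = 0.0281). Atp5md, a small membrane subunit linked to dimers of the synthase, was at 70.1, 77.6, 77.2 and 68.5 CPM in control and at 70.1, 82.5, 103.7 and 99.7 CPM in Smo-KO livers (0.28 ± 0.12, SE, unadjusted p = 0.0380). Atp5e, the epsilon subunit at the foot of the F1 head, was at 192.9, 156.3, 145.4 and 148.2 CPM in control and at 168.3, 175.4, 204.5 and 217.2 CPM in Smo-KO livers (0.25 ± 0.12, SE, unadjusted p = 0.0479). In Atp5e control liver 1 exceeded Smo-KO livers 1 and 2.

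In the catalytic head, Atp5a1, the alpha subunit and the antibody marker of complex V, was at 1035, 918.7, 1017 and 935.5 CPM in control and at 902.8, 995.3, 888.3 and 925.2 CPM in Smo-KO livers (-0.074 ± 0.085, SE, unadjusted p = 0.401). Atp5b, the catalytic beta subunit, had a log2 fold change of -0.0067 ± 0.084 (SE, unadjusted p = 0.938). The c ring is built from a single mature protein that Atp5g1, Atp5g2 and Atp5g3 all encode. Their log2 fold changes were -0.0030 ± 0.12, 0.021 ± 0.086 and 0.13 ± 0.092 (SE), and the lowest unadjusted p was 0.189. The sign of the Atp5g1 value turned with DESeq2, with RLE size factors and with a stricter count filter.

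**Figure D2:**
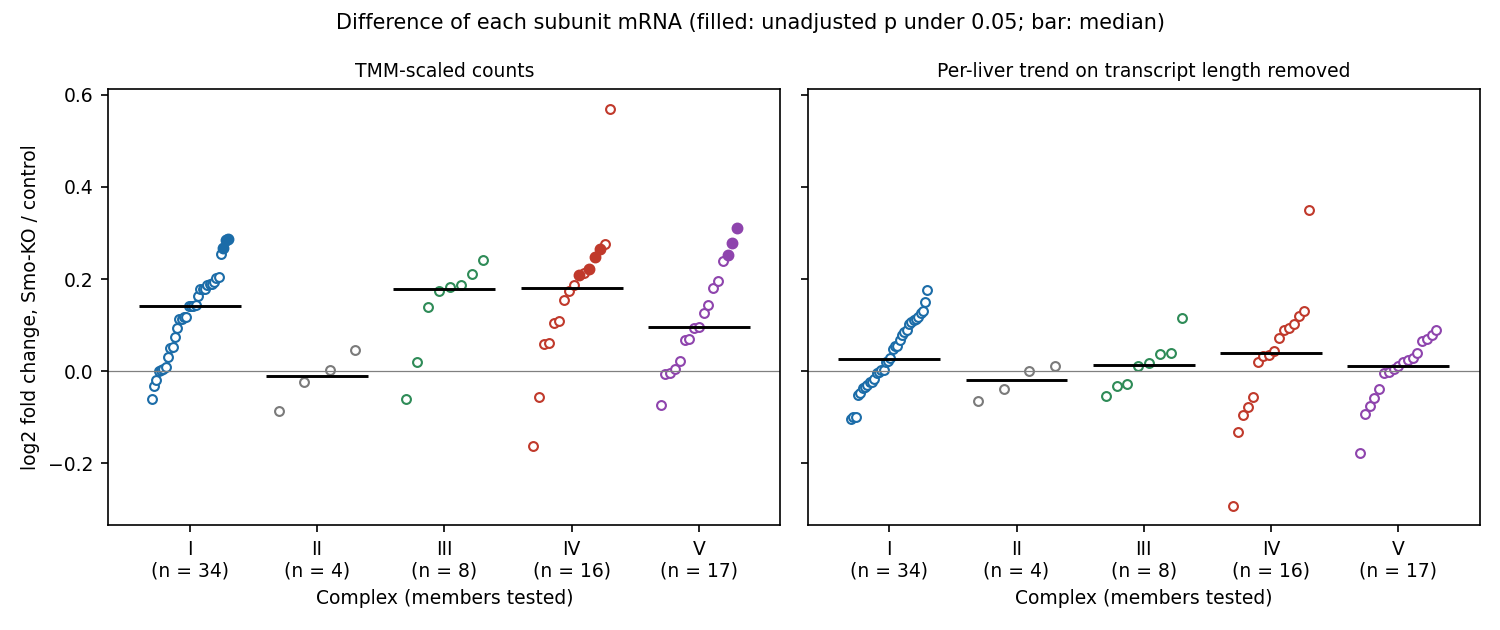
Log2 fold change (Smo-KO over control, vertical axis) of each tested subunit mRNA by complex, from TMM-scaled counts on the left and after the trend on transcript length was removed in each liver on the right. Filled points have an unadjusted p under 0.05, and bars are medians: 10 points are filled on the left and 0 on the right, where every median lies between -0.019 and 0.040.

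The order of the livers was alike in complexes I and IV and different in complex II. Relative to its control mean, and over the members above 10 CPM (34 in complex I, 4 in complex II and 13 in complex IV), the median complex I member stood at log2 values of 0.16, -0.12, -0.062 and 0.021 in control livers and -0.041, 0.072, 0.21 and 0.30 in Smo-KO livers. The median complex IV member stood at 0.11, -0.13, -0.029 and 0.0043 in control and at 0.0089, 0.13, 0.31 and 0.30 in Smo-KO livers. The median complex II member stood at 0.092, -0.10, -0.020 and 0.00020 in control and at -0.074, 0.053, -0.065 and 0.067 in Smo-KO livers, so that Smo-KO liver 3 was low there. Sdha and Atp5a1 had their lowest level of the 8 livers in Smo-KO liver 3. Smo-KO liver 4 had the highest level of the 8 livers for 37 of the 79 tested subunits, control liver 1 for 19 and Smo-KO liver 3 for 16, and control liver 2 had the lowest for 45. Smo-KO liver 1 exceeded every control in 2 of the 79 subunits, against 18.8% of all genes tested. Smo-KO livers 2, 3 and 4 did so in 26, 41 and 54 of them (32.9%, 51.9% and 68.4%), against 21.1%, 26.0% and 23.2% of all genes.

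The size of a member's difference went with the length of its mRNA. Many subunits are small proteins with short transcripts: the median transcript length of the tested members was 745 nucleotides (nt), against 2801 nt for all genes tested. The 10 members called were all among the 40 tested members of at most 750 nt, which had a median log2 fold change of 0.19, with 39 higher. The 39 longer members had a median of 0.074, with 29 higher and none called. The large catalytic and core proteins named above (Sdha, Uqcrc2, Atp5a1, Atp5b and Ndufs1) belong to the longer group. Accessory subunits fell in both: the median length of those of the matrix arm was 875 nt and of those of the membrane arm 718 nt.

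Genes outside the subunit families showed a gradient in length as well. Their median log2 fold change was 0.21 for the 96 genes of at most 500 nt, 0.15 for the 287 genes of up to 750 nt, 0.089 for the 496 genes of up to 1000 nt, 0.0093 for the 2993 genes of up to 2000 nt, -0.018 for the 5303 genes of up to 4000 nt and -0.020 for the 3668 longer ones. The members in the same classes had medians of 0.24, 0.18, 0.13, 0.074 and -0.061, with a single member, Atp5g1, over 4000 nt. In the class of up to 2000 nt 18 of 21 members were higher, against 52.5% of the other genes. Short genes outside the families that were well expressed (237 genes of at most 750 nt and over 10 CPM) stood at median log2 values of 0.089, -0.098, -0.049 and 0.034 relative to the control mean in control livers and at 0.018, 0.066, 0.25 and 0.29 in Smo-KO livers. Smo-KO livers 3 and 4 were thus high, and control liver 2 low, in short mRNAs at large as in the members.

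**Figure D3:**
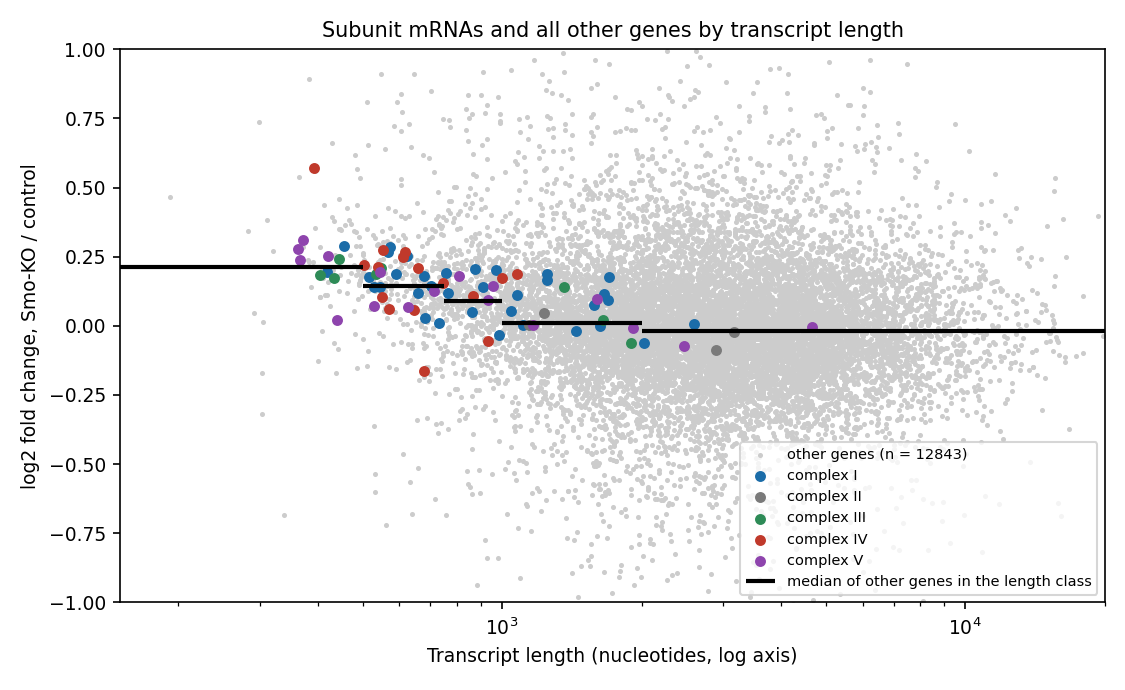
Log2 fold change (Smo-KO over control, vertical axis) against transcript length (nt, log axis) for the tested subunit mRNAs, coloured by complex, and for 12843 other genes in grey, of which 88 lie beyond the vertical limits. Black bars are medians of the other genes in a length class: they run from 0.21 at up to 500 nt to -0.020 over 4000 nt, and the members' medians in the 4 classes up to 2000 nt, from 0.24 to 0.074, lie above them.

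When the trend of log2 CPM on transcript length was removed within each liver, the medians were 0.026 for complex I, -0.019 for complex II, 0.014 for complex III, 0.040 for complex IV and 0.012 for complex V. Of the 79 members, 49 were then higher and 30 lower, and none had an unadjusted p under 0.05, while 13.5% of all genes did (DESeq2 was not run in this setting, and the lowest adjusted p of a member in edgeR was 0.389). Ndufb2 then had a log2 fold change of 0.085 (unadjusted p = 0.295), Cox6b1 one of 0.12 (unadjusted p = 0.145) and Atp5k one of 0.069 (unadjusted p = 0.465). Ndufs4, a phosphorylated accessory subunit of complex I with a transcript of 1698 nt, had the lowest p of all members after this step, with a log2 fold change of 0.18 before and after (unadjusted p = 0.0676 and 0.0585). Its levels were 108.0, 96.9, 111.3 and 105.1 CPM in control and 104.8, 122.7, 126.7 and 122.4 CPM in Smo-KO livers. Ndufs4 was singled out after its values were seen. The gradient did not divide the groups: in the shortest class Smo-KO liver 1, at -0.081, lay below control livers 1 and 4, at -0.022 and -0.064. Its source was not tested.

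**Figure D4:**
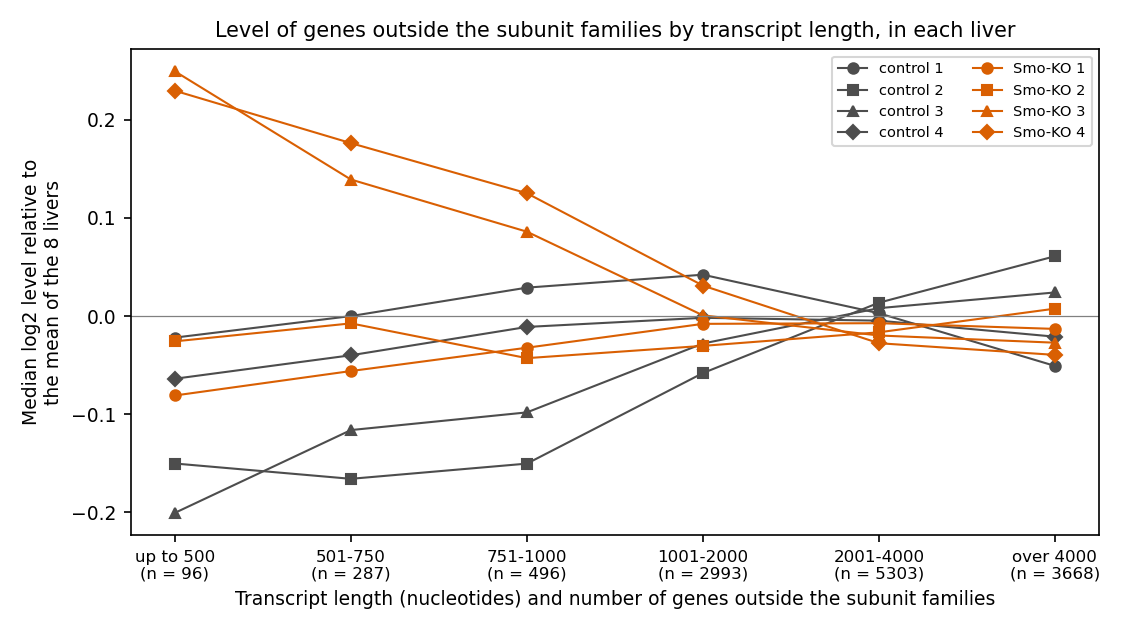
Median log2 level relative to the mean of the 8 livers (vertical axis) of genes outside the subunit families in 6 classes of transcript length (horizontal axis, nt), with a line per liver. Smo-KO livers 3 and 4 lie at 0.25 and 0.23 in the shortest class and control livers 2 and 3 at -0.15 and -0.20, and all 8 lines lie between -0.028 and 0.014 in the class of up to 4000 nt.

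Levels of different members were compared per kilobase of transcript. In control livers the median member stood at 128.7 CPM per kb in complex I, 157.8 in complex II, 254.2 in complex III, 254.4 in complex IV and 228.2 in complex V, against 8.39 for the median gene tested. The most abundant mRNAs per length were Uqcrq, a small subunit of complex III, at 963 ± 82.4 CPM per kb, Cox6a1 at 692 ± 67.2, Atp5b at 636 ± 39.7, Cox4i1 at 634 ± 89.1 and Atp5g3 at 606 ± 38.0 (SD, n = 4). Apart from the first, these neighbours did not differ beyond their spread. Among the subunits of the general liver enzyme, leaving out Ndufs5, which was listed without reads, Ndufs1 was lowest at 35.6 ± 2.86 CPM per kb. Of the c ring genes, Atp5g3 exceeded Atp5g2, which was at 228.2 ± 18.2 CPM per kb, and the value of Atp5g1, 54.9 ± 8.69, rests on a gene model of 4660 nt with a long 3' end. The medians per complex ranged over the 8 livers from 114.7 to 151.7 in complex I and from 234.5 to 318.2 CPM per kb in complex IV, and these ranges did not overlap.

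The promoters of the members were described from RefSeq windows of 250 bases before to 50 after a start (GRCm38.p6), which were found for 68 of the 84 subunit genes. Nuclear respiratory factor 1 and the Ets factor GABP are known activators of respiratory chain genes, and YY1 is a further factor at such promoters. The letters GCGCATGC, a core of the nuclear respiratory factor 1 element, were present on either strand in 10 of 68 windows (14.7%), against 5.75% of 10348 tested genes and 3.05% of all 27025 genes with a window. The Ets letters CCGGAAG were present in 17 (25.0%), against 19.4% of tested genes, and the YY1 letters AAGATGGC in 10 (14.7%), against 5.08%. The Ets and YY1 letters can overlap in their AAG, which happened in 0 of the 68 windows. Among the called members with a window, Atp5k held the nuclear respiratory factor 1 letters, as did Sdhb, whose log2 fold change was near 0. A match of letters is a description only.
In each stretch below, the first match of the nuclear respiratory factor 1 letters, in either orientation, is in capitals. In Ndufa11 a match in the other orientation overlaps it and ends in lower case. The stretches are 100 bases 5' to 3' before the start of 2 complex I genes that hold these letters upstream of the annotated transcripts. They are Ndufa6 (chr15:82354323-82354422, minus strand, GRCm38.p6; log2 fold change 0.19 ± 0.10, SE, unadjusted p = 0.0878) and Ndufa11 (chr17:56717662-56717761, plus strand; 0.14 ± 0.12, SE, unadjusted p = 0.266).
Ndufa6: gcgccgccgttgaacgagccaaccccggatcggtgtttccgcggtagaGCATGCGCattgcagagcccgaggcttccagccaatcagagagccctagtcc
Ndufa11: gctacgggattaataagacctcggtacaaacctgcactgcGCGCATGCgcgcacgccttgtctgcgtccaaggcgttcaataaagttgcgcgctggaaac

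Factors that build or feed the complexes were read from fixed lists, and called at an unadjusted p under 0.05, as were 13.8% of all genes tested. With adjustment edgeR called no gene. Of the assembly factors, 0 of 16 for complex I, 0 of 4 for complex II, 0 of 5 for complex III and 0 of 4 for complex V were called, with median log2 fold changes of -0.064, 0.022, 0.015 and -0.020. For complex IV 2 of 21 were called. Cox15, which makes the haem a of cytochrome c oxidase, was at 43.3, 40.0, 39.3 and 32.3 CPM in control and at 29.8, 27.6, 28.3 and 29.1 CPM in Smo-KO livers. Every Smo-KO liver lay below every control (-0.43 ± 0.10, SE, unadjusted p = 0.00111, adjusted p = 0.140 in edgeR and 0.0439 in DESeq2), and with the length trend removed the value was -0.41. Coa6, a copper handling factor, was at 34.5, 33.8, 33.0 and 36.4 CPM in control and at 34.9, 44.8, 45.7 and 45.1 CPM in Smo-KO livers (0.31 ± 0.10, SE, unadjusted p = 0.0111). Its value was 0.14 with the length trend removed.

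Of 18 genes for mobile electron carriers and ubiquinone synthesis, 4 were called. Coq10b, a ubiquinone-binding protein, was at 33.6, 27.4, 26.5 and 30.5 CPM in control and at 31.4, 63.0, 57.2 and 40.9 CPM in Smo-KO livers (0.71 ± 0.18, SE, unadjusted p = 0.00215; DESeq2 adjusted p = 0.0256). Coq8a, a kinase-like protein needed for ubiquinone synthesis, was at 192.8, 145.0, 186.9 and 155.8 CPM in control and at 151.8, 107.9, 64.2 and 139.1 CPM in Smo-KO livers (-0.55 ± 0.21, SE, unadjusted p = 0.0193). Smo-KO liver 3 was by far the lowest in Coq8a. A further list of 8 genes held carriers and channels of adenine nucleotides and phosphate, the uncoupling protein Ucp2 and Atpif1, the inhibitor of the ATP synthase. None of its carriers or channels was called. Only Atpif1 was, at 55.5, 54.7, 56.6 and 59.9 CPM in control and 60.4, 65.8, 71.8 and 79.5 CPM in Smo-KO livers. The groups did not overlap (0.29 ± 0.098, SE, unadjusted p = 0.0111), and the value was 0.12 with the length trend removed (unadjusted p = 0.163).

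Of 14 genes of the citric acid cycle, 10 were lower in mean (median log2 fold change -0.025) and only Cs, citrate synthase, was called (-0.24 ± 0.10, SE, unadjusted p = 0.0399). Of 10 genes for pyruvate dehydrogenase and its regulators, 4 were called. Pdhb, the beta subunit of the E1 enzyme, was at 113.0, 110.8, 117.2 and 108.6 CPM in control and at 97.4, 101.1, 85.1 and 96.6 CPM in Smo-KO livers, with no overlap (-0.24 ± 0.083, SE, unadjusted p = 0.0127). Pdk4, the kinase that switches the enzyme off in fasting, was at 20.6, 29.5, 48.4 and 28.3 CPM in control and at 45.0, 54.4, 97.8 and 31.3 CPM in Smo-KO livers (0.84 ± 0.31, SE, unadjusted p = 0.0178). The others were Pdp2, a phosphatase that switches the enzyme on, named after its values were seen, which was higher (0.33 ± 0.13, SE, unadjusted p = 0.0234), and Pdha1, the alpha subunit of the E1 enzyme, which was lower (-0.27 ± 0.12, SE, unadjusted p = 0.0486). Of the 15 regulators of respiratory genes none was called: the lowest p were those of Tfb1m, a mitochondrial transcription factor (-0.32 ± 0.16, SE, unadjusted p = 0.0690), and Gabpb1, a subunit of GABP (-0.23 ± 0.14, SE, unadjusted p = 0.121). With the length trend removed, Tfb1m was called (-0.34, unadjusted p = 0.0488), beside 13.5% of all genes. Ppargc1a, the coactivator PGC-1 alpha, was at 7.83, 6.82, 7.45 and 7.91 CPM in control and at 6.08, 7.20, 6.10 and 8.53 CPM in Smo-KO livers (-0.10 ± 0.16, SE, unadjusted p = 0.523). Of 10 genes for proteins used as mitochondrial markers, only Pdha1 was called, and their summed level was 2096 ± 48.5 CPM in control and 2120 ± 114 CPM in Smo-KO livers (SD, n = 4 each).

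Markers of other liver cells were read beside the members. Calls are again at an unadjusted p under 0.05, which 13.8% of all genes tested reached in either direction. Of the 8 lymphocyte markers listed, the 7 found in the files summed to 47.8 ± 5.94 CPM in control and 27.6 ± 7.66 CPM in Smo-KO livers (SD, n = 4 each), with Nkg7 the most abundant, and 5 of the 7 tested were called, all lower. Smo-KO liver 2, at 19.9 CPM, was the lowest in these markers and liver 3, at 34.9 CPM, the highest of the Smo-KO livers. Of the other lists, 1 of 6 endothelial (Pecam1, lower), 1 of 7 stellate (Col1a1, lower), 1 of 10 hepatocyte (Cps1, lower), 0 of 8 macrophage, 0 of 5 cholangiocyte and 0 of 3 neutrophil markers tested were called. The brown fat markers, listed for Cox7a1 and Cox8b, summed to 2.81 ± 1.01 and 3.11 ± 1.38 CPM. The part of cell makeup in the values of the members was not tested.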

How the data were processed

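Raw whole-number counts per gene symbol were deposited by the authors, 1 list per liver. The submitters' processing notes name fastp, STAR 2.7.5, featureCounts 2.0.1 and GRCm38, although the lists end in entries of the form that htseq-count writes. The annotation and strand setting are not given in the sources used here. Entries naming no gene (8.33% ± 0.743 of reads on no feature for control and 9.23% ± 0.330 for Smo-KO, and 2.55% and 2.51% of ambiguous reads, SD over 4 livers) entered neither the library sizes nor the fits.

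All 12977 genes that passed filterByExpr were fitted with edgeR 4.0.16 in R 4.3.3 (TMM, estimateDisp, glmQLFit, glmQLFTest, a 2-group design, p-values adjusted across all genes by Benjamini-Hochberg), and the members' values were then read out. DESeq2 1.42.0 served as an alternative. SE are those implied by the F statistic. CPM are counts scaled to a TMM-adjusted library of 1e+06 reads. Single values were also compared by exact permutation tests over 70 assignments, two-sided. Transcript lengths are those of GENCODE M21 models, 1 principal transcript a gene, and the length trend was a lowess curve (span 0.3) removed through offsets. Such a fit also takes out part of any group difference that follows length. The steps were tested on simulated data, and plots used matplotlib 3.10.9.

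The members and lists were chosen with earlier results of these data known, so no test of a list or sum was made. Genes were named by rule: Smo, an antibody marker each for complexes I, II, III and V, Sdha, the 3 members per complex with the lowest p in each direction, all of complex II, the isoforms of complex IV, the c ring genes, the 2 lowest p of each list and Ppargc1a. Further genes were named after their values were seen. Each mouse gave 1 library, so p-values measure the spread between animals, and intervals from counts cover counting error only. Of the 84 subunit genes, 24 share exon bases with another gene, none over 50% of them.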

Additional observations from a re-analysis of the deposited data

Results flagged for a closer look

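A liver far from the other 3 of its group was seen 6 times among 132 groups examined. About 6.6 are expected at a level of 0.05 for independent groups. The groups here are not independent, and some hold only counts of 0 and cannot be flagged. A single read among counts of 0 is always flagged. The 2 numbers therefore do not show whether such livers are more frequent than by chance. Control liver 1 stood apart in Ndufa10, at 249.7 CPM against 178.2 to 190.2 CPM in the other controls, in Cox6a1, at 452.5 CPM against 372.2 to 378.5 CPM, and in Phb2, a scaffold protein of the inner membrane, at 333.3 CPM against 258.2 to 269.9 CPM. Smo-KO liver 1 stood apart in Coa6, at 34.9 CPM against 44.8 to 45.7 CPM in the other Smo-KO livers. Cox8b was detected in control liver 2, at 0.105 CPM, and in Smo-KO liver 3, at 0.122 CPM, and listed at 0 in the other livers, and each of these values is a single read.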

How the results depend on the processing

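Of 79 subunits, 10 were called at an unadjusted p under 0.05, beside 13.8% of all genes. The count became 19 with the trend on GC content removed (15.5% of all genes). It became 0 with the length trend removed (13.5%) and 0 with the replicate block and the length trend removed together (15.7%). With 1 liver left out the count ran from 0 to 30, in fits that called 10.2% and 17.8% of all genes. The count was 15 with DESeq2 (12.5% of all genes) and 13 with RLE size factors (13.8%). It was 13 of 77 tested with at least 10 counts in every liver (13.9%) and 11 of 81 without a filter (11.4%). The replicate block gave 10 (16.3% of all genes, lowest adjusted p of a member in edgeR 0.179). These counts lay within 1.5 times of 10, with DESeq2 at that limit. Same-numbered livers correlated at 0.104, 0.187, 0.0611 and 0.113, so the numbers were not taken to pair the mice, and 3 of 4 control livers matched their own number best. The median of complex III became 0.014 with the length trend removed and 0.016 with the replicate block added, and that of complex IV 0.035 with both. The median of complex II lay near 0 and was 0.011 with the GC trend removed. The other medians moved by less than 1 SD between livers. That SD was 0.151 for complex I and 0.116 for complex V, more than their medians of 0.141 and 0.0963. A fall to 0 would thus not have counted as a move there. With the length trend removed, the medians of complexes I, IV and V fell to 0.0255, 0.0398 and 0.0116. With 1 liver left out the medians ran from 0.086 to 0.20 for complex I, -0.0457 to 0.0454 for complex II, 0.12 to 0.21 for complex III, 0.13 to 0.25 for complex IV and 0.076 to 0.17 for complex V.

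Over all genes, edgeR called 0 at an adjusted p of 0.05, 61 without a filter, 8 with the replicate block, 4 with the block and the length trend removed, and 0 to 78 with 1 liver left out, and DESeq2 called 167. No subunit was among them in any setting. Of the calls on named genes, 13 were lost with the length trend removed, 11 with the replicate block as well, and at most 1 under each other setting on all livers. Calls were gained for Uqcrh and Uqcr11 with DESeq2, RLE factors, the stricter filter and the GC trend removed, for Uqcrh with the replicate block, for Uqcr11 without a filter, for Ndufb8 and Uqcr10 with the GC trend removed and for Tfb1m with the length trend removed. The signs that turned were of genes not called, and the cause was not tested. With the length trend removed, Sdhb became -0.039, Sdhc 0.0011, Uqcr10 -0.029, Atp5g1 0.012, Atp5g2 -0.18, Cox6a1 -0.096, Cox8a -0.056 and Fmc1 -0.14. With the replicate block as well, these became -0.0354, 0.0049, -0.030, 0.023, -0.18, -0.0953, -0.055 and -0.14, and Atp5b 0.000194. Atp5b became 0.021 with the GC trend removed, and Atp5g1 became 0.00288 with DESeq2, 0.00286 with RLE factors, 0.00194 with at least 10 counts in every liver and 0.00461 with the replicate block. With 1 liver left out, values ran from -0.037 to 0.033 for Atp5b, -0.073 to 0.11 for Atp5g1, -0.016 to 0.062 for Atp5g2, -0.13 to 0.45 for Cox6b2, -0.055 to 0.11 for Fmc1, -0.11 to 0.060 for Ndufa10, -0.33 to 0.13 for Ndufa4l2, -0.058 to 0.035 for Ndufa9, -0.10 to 0.059 for Ndufs8, -0.0067 to 0.24 for Sdhaf3, -0.0442 to 0.0966 for Sdhb, -0.049 to 0.043 for Sdhc and -0.00438 to 0.116 for Sdhd. Cox6a2 and Cox7a1 gave no value with at least 10 counts in every liver, and for these and the other forms at about 1 CPM the depth sets the precision.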

Other observations

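The cytosolic ribosomal proteins, chosen by name after the length gradient was seen, are another family of short mRNAs. Of 73 tested, 72 were higher in mean in Smo-KO livers, with a median log2 fold change of 0.16 and 13 (17.8%) called at an unadjusted p under 0.05, against 13.8% of all genes tested. Control and Smo-KO livers were fully separate for 6 of the 73, and for 7.37% of all genes. With the length trend removed, the median was 0.060, 56 were higher and 2 were called, against 13.5% of all genes.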
